A study of Mus musculus with 9 samples.

Results

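Mast cell proteases are the enzymes stored in the granules of mast cells, and 8 mast cell genes were followed across 3 neighbouring zones of the mouse stomach. The genes were the chymases Mcpt1, Mcpt2, Mcpt4 and Cma1, the carboxypeptidase Cpa3, the tryptase genes Tpsb2 and Tpsab1, and the growth factor receptor Kit. They were taken as every probe set whose single gene symbol is one of these names, which gave 10 probe sets of the 45037 non-control probe sets on the array, or 8 of 18193 genes. Tpsb2 and Kit had 2 probe sets each, and all 10 passed the filter on low signal that left 29511 probe sets for the tests.

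The tissue came from 9 healthy, untreated female C57Bl/6 mice aged 3 months and kept free of specific pathogens. From every stomach a stripe of the squamocolumnar junction (the limiting ridge, where squamous and glandular lining meet), a stripe of the squamous forestomach and a stripe of the glandular corpus were cut side by side, each 600 to 800 µm wide. Stripes of 3 mice were pooled before RNA extraction, which gave 3 series of 3 zones and 9 Affymetrix arrays. The 3 arrays of a zone are therefore separate pools of mice, and 3 arrays a zone set the precision. Values are MAS5 signals on a linear scale, and the signal of one probe set is not compared with that of another.

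Mast cells settle in tissues as precursors and finish their differentiation there under the control of Kit and its ligand, stem cell factor (Kitl). In the mouse, mucosal mast cells lie in and under the epithelium of the gut and are known for the chymases Mcpt1 and Mcpt2. Connective tissue mast cells lie in the submucosa, muscle, skin and peritoneum and are known for Mcpt4, Cma1, Cpa3 and tryptase. Chymases cut proteins after aromatic residues, tryptases after basic residues, and Cpa3 trims residues from the carboxyl end of peptides.

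The labels call the samples epithelium, but all 10 smooth muscle markers were above the filter level on all 9 arrays, so the stripes held wall tissue besides the lining. The summed signal of the smooth muscle markers was 27433.2 to 32495.5 in the junction, 65083.1 to 70785 in the forestomach and 24613.8 to 35280.8 in the corpus. All 8 squamous markers measured were higher in the forestomach and in the junction than in the corpus. Over all genes 57.8% and 21.4% passed in these comparisons, in either direction. The summed signal of 10 gastric gland markers was 116892.6 to 133600.5 in the junction and 103992.6 to 155835.6 in the corpus. In the forestomach it was 1346.4, 24960.4 and 33484.3 in series 1, 2 and 3, so those libraries differed in how much gland RNA they held. The ratio of 3′ to 5′ Gapdh probe sets was 0.754 to 0.762 in the junction, 0.789 to 0.926 in the forestomach and 0.697 to 0.754 in the corpus.

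The chymases Mcpt1, Mcpt2 and Mcpt4 differed most between zones among the 8 genes. Mcpt1 and Mcpt2 were bright in the junction and corpus and below the filter level on every forestomach array, whereas Mcpt4 was bright only on the forestomach arrays. Of the 10 probe sets, 9 passed the test between forestomach and corpus (3 higher and 6 lower in the forestomach), against 52.8% of all probe sets tested (25.2% higher and 27.6% lower). Between junction and corpus 4 passed (2 higher and 2 lower in the junction), against 19.1% of all probe sets (9.14% higher and 9.93% lower). Between junction and forestomach 6 passed (4 higher and 2 lower in the junction), against 37.4% (17.3% higher and 20.1% lower). The groups of 3 arrays did not overlap for 10, 6 and 7 probe sets in these comparisons, where 61.2%, 40.1% and 50.8% of all probe sets did not. The 3 comparisons share arrays, so their counts are not independent.

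**Figure D1:**
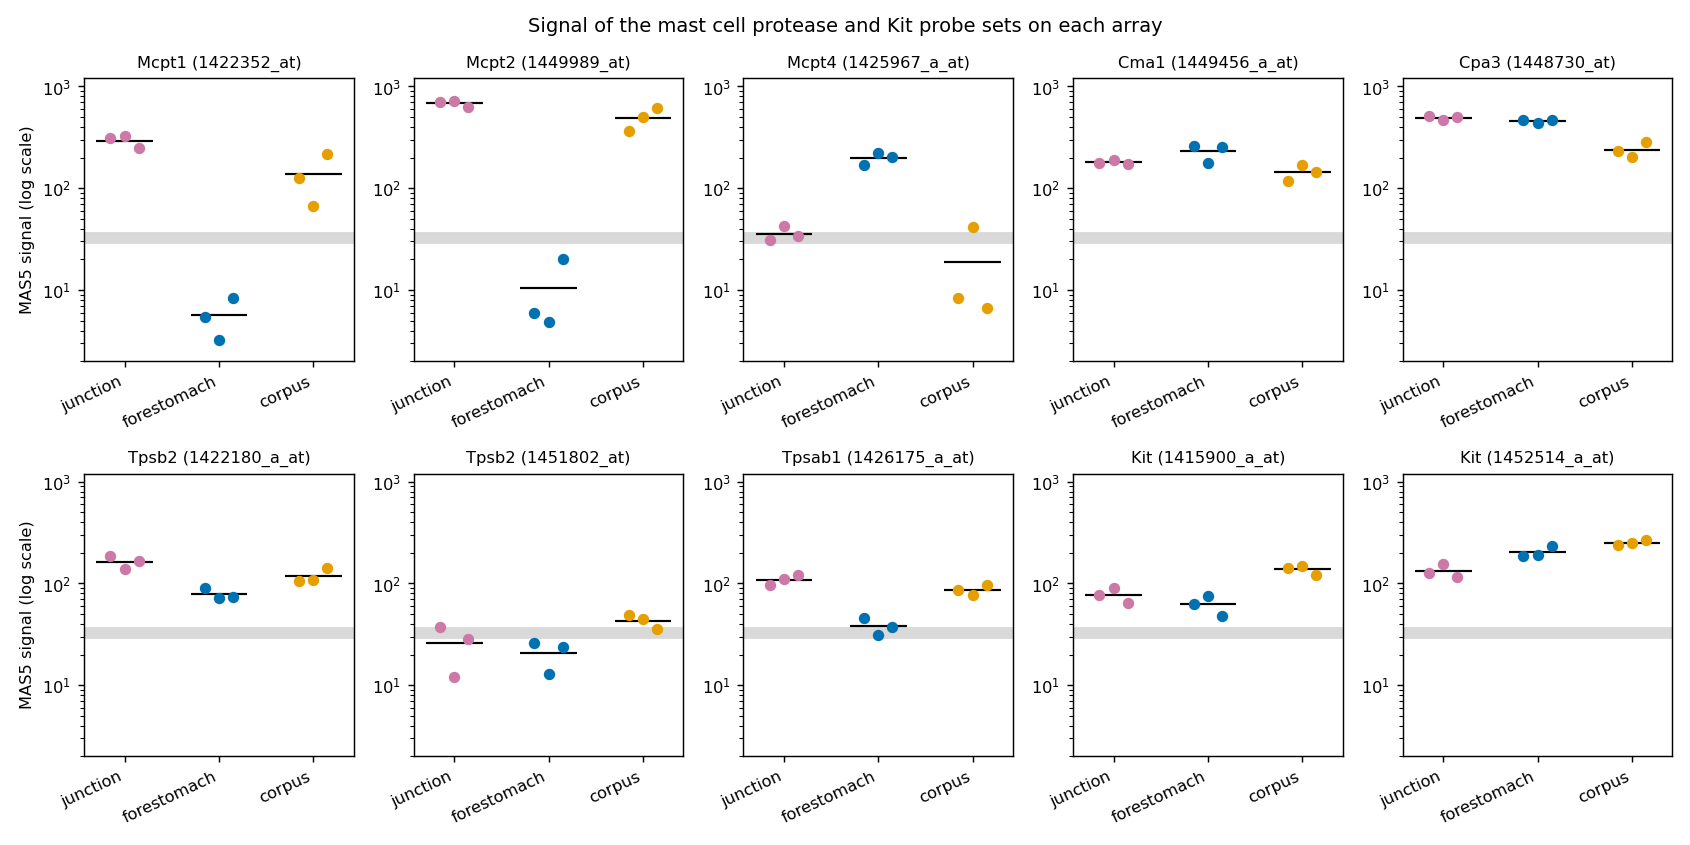
Signal of each of the 10 probe sets on the 9 arrays (log axis), by zone, with the zone mean as a line and the range of the arrays' filter levels, 29.0 to 36.5, as a grey band. Mcpt1 and Mcpt2 lie below the band on the 3 forestomach arrays, and Mcpt4 lies far above it only there.

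Mcpt1, Mcpt4 and Cma1 lie in one chymase cluster on chromosome 14, in the RefSeq order Cma1, Cma2, Mcpt1, Mcpt2, Mcpt9, Mcpt4 and Mcpt8. Promoter windows of 250 bases upstream of the transcription start were found for 5 of the 8 genes, not for Mcpt2, Tpsb2 and Tpsab1. The windows of the 3 chymases are printed 5′ to 3′ on the strand of the gene because genes of one cluster differed in their order of zones. They are RefSeq sequences of build GRCm38.p6, at chr14:56017714-56017963 (plus strand) for Mcpt1, chr14:56062311-56062560 (minus strand) for Mcpt4 and chr14:55944676-55944925 (minus strand) for Cma1. Capitals mark GATAA or its reverse complement TTATC, the core letters of the motif of GATA factors.
Mcpt1 promoter: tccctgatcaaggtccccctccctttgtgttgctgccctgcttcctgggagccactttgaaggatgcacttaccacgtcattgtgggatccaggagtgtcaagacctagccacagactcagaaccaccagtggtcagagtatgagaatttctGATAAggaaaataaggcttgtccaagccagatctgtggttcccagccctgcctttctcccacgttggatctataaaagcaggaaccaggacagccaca
Mcpt4 promoter: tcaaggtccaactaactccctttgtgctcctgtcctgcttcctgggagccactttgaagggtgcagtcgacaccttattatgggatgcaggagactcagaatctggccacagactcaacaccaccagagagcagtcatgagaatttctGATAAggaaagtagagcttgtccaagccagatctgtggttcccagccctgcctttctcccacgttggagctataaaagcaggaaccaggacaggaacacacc
Cma1 promoter: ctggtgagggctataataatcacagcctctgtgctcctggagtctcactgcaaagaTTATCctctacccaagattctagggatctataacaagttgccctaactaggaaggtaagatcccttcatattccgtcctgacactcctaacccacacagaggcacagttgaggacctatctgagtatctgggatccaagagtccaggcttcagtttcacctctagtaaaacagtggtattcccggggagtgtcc

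The Mcpt1 and Mcpt4 windows were identical at 213 of 250 bases (85.2%) in a gapped alignment. Mcpt1 and Cma1 gave 61.2% and Mcpt4 and Cma1 63.6%, little above pairs with genes outside the cluster, such as 59.6% for Mcpt4 and Cpa3 and 52.4% for Mcpt4 and Kit. GATAA stood 98 bases upstream of the start in Mcpt1 and 102 in Mcpt4, and as TTATC 194 bases upstream in Cma1. The Cpa3 window, on chromosome 3, held it 45 bases upstream, and the Kit window held none. The motif, searched on both strands, was present in 22.6% of all 32851 windows of this length. The motif CANNTG, searched the same way, matched once in Cma1, at 2 places in Cpa3 and nowhere in Mcpt1 and Mcpt4, and was present in 66.2% of all windows. These matches describe letters and are not evidence of binding.

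Mcpt1 (probe set 1422352_at), a chymase of mucosal mast cells, had signals of 310.1, 325.6 and 246.0 in the junction (293.9 ± 42.2, SD, n = 3), 5.4, 3.2 and 8.4 in the forestomach (5.7 ± 2.6) and 127.3, 67.2 and 215.5 in the corpus (136.7 ± 74.6). The 3 zones did not overlap, and the corpus arrays were the most spread. Mcpt1 was lower in the forestomach than in the corpus by at least 4.13-fold (adjusted p = 7.93e-05) and higher in the junction than in the forestomach by at least 9.84-fold (adjusted p = 3.19e-05). These bounds put dim values at the filter level of their array, because a signal under that level has no reliable size. In bulk tissue, fewer cells of a type and less RNA per cell cannot be told apart.

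Mcpt1 was 2.26-fold higher in the junction than in the corpus, a log2 difference of 1.18 ± 0.34 (SE, adjusted p = 0.0423, 95% interval 0.41 to 1.95). With the series as a block the adjusted p was 0.0519, and the call was kept in 9 of 24 alternatives, with adjusted p-values of 0.00947 to 0.209. Of the single arrays, leaving out any but corpus replicate 3 lost the call. Without corpus replicate 2, the dimmest corpus array, the log2 difference was 0.78. The direction was the same in all 24.

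Mcpt2 (1449989_at), the other mucosal chymase, had signals of 696.3, 717.7 and 630.9 in the junction (681.6 ± 45.2), 6.0, 4.9 and 20.2 in the forestomach (10.4 ± 8.5) and 368.1, 498.0 and 612.9 in the corpus (493.0 ± 122.5). It was lower in the forestomach than in the corpus by at least 16.3-fold (adjusted p = 2.15e-06) and higher in the junction than in the forestomach by at least 22.9-fold (adjusted p = 4.28e-06). All junction arrays lay above all corpus arrays, but the log2 difference of 0.49 ± 0.28 did not pass the test (adjusted p = 0.25, 95% interval -0.15 to 1.12).

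The 3 forestomach arrays differed in gland RNA. As a percentage of the mean corpus level, the median of the 10 gland markers was 0.336, 3.43 and 6.18% on forestomach arrays 1, 2 and 3. Mcpt1 and Mcpt2 were below the filter level on all 3, where differences between arrays have no reliable size, so a relation of the chymases to gland RNA was not tested.

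Mcpt4 (1425967_a_at), the connective tissue chymase whose activity most resembles that of human chymase, had signals of 30.7, 42.2 and 33.9 in the junction (35.6 ± 5.9), 167.7, 224.3 and 201.2 in the forestomach (197.7 ± 28.5) and 8.3, 41.8 and 6.7 in the corpus (18.9 ± 19.8). Only 2 junction arrays and 1 corpus array were above the filter level. Mcpt4 was higher in the forestomach than in the corpus (adjusted p = 1.88e-04), but with 2 corpus arrays under the filter level the size is uncertain, at 8.25-fold with the pseudocount of 9.9 and 4.79-fold with the larger one of 30.9. It was 4.56-fold lower in the junction than in the forestomach (log2 difference -2.19 ± 0.38, adjusted p = 0.00227). With forestomach array 1 alone, whose spread is then taken from the other zones, that difference was -1.97 (adjusted p = 0.0612).

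Junction and corpus overlapped for Mcpt4, because corpus array 2 read 41.8 while the other two read under 10, and the log2 difference of 0.86 ± 0.38 did not pass the test (adjusted p = 0.15). Without corpus replicate 2 it was 1.38 and passed (adjusted p = 0.00184). Folds of Mcpt1, Mcpt2 and Mcpt4 that involve a dim zone depend on the pseudocount of 9.9. With a pseudocount of 1 the forestomach minus corpus differences were -4.29, -5.66 and 3.76, and with a pseudocount of 30.9 they were -2.10, -3.66 and 2.26, all past the threshold. Cross-hybridisation between these similar chymase transcripts was not tested.

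Cma1 (1449456_a_at), a chymase of connective tissue mast cells with elastase-like activity in the mouse, varied much less. Its signals were 176.9, 191.4 and 173.3 in the junction (180.5 ± 9.6), 259.1, 177.3 and 254.7 in the forestomach (230.4 ± 46.0) and 117.9, 170.1 and 145.5 in the corpus (144.5 ± 26.1). Forestomach array 2 fell among the junction arrays, while every junction and forestomach array was above every corpus array. Cma1 was 1.55-fold higher in the forestomach than in the corpus (log2 difference 0.63 ± 0.18, adjusted p = 0.0143). That call was lost without corpus replicate 1 (adjusted p = 0.0509), forestomach replicate 1 (0.0519) or forestomach replicate 3 (0.0508), and without series 1 (0.166) or series 3 (0.123). The junction did not pass the test against the corpus (0.32 ± 0.18, adjusted p = 0.237) or against the forestomach (-0.32 ± 0.18, adjusted p = 0.188), although without forestomach replicate 2 the junction was lower than the forestomach (adjusted p = 0.0457).

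Cpa3 (1448730_at), the carboxypeptidase that is stored with Cma1 and depends on it in the granule, set the corpus apart from both other zones. It had signals of 515.6, 465.9 and 497.1 in the junction (492.9 ± 25.1), 465.4, 437.1 and 463.5 in the forestomach (455.3 ± 15.8) and 230.2, 201.8 and 284.1 in the corpus (238.7 ± 41.8). It was 2.04-fold higher in the junction than in the corpus (log2 difference 1.03 ± 0.13, adjusted p = 0.00109) and 1.89-fold higher in the forestomach than in the corpus (0.92 ± 0.13, adjusted p = 3.95e-04). Junction and forestomach differed by a log2 of 0.11 ± 0.13, which did not pass the test (adjusted p = 0.536, 95% interval -0.18 to 0.41). Both calls were kept in 24 of 24 alternatives.

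**Figure D2:**
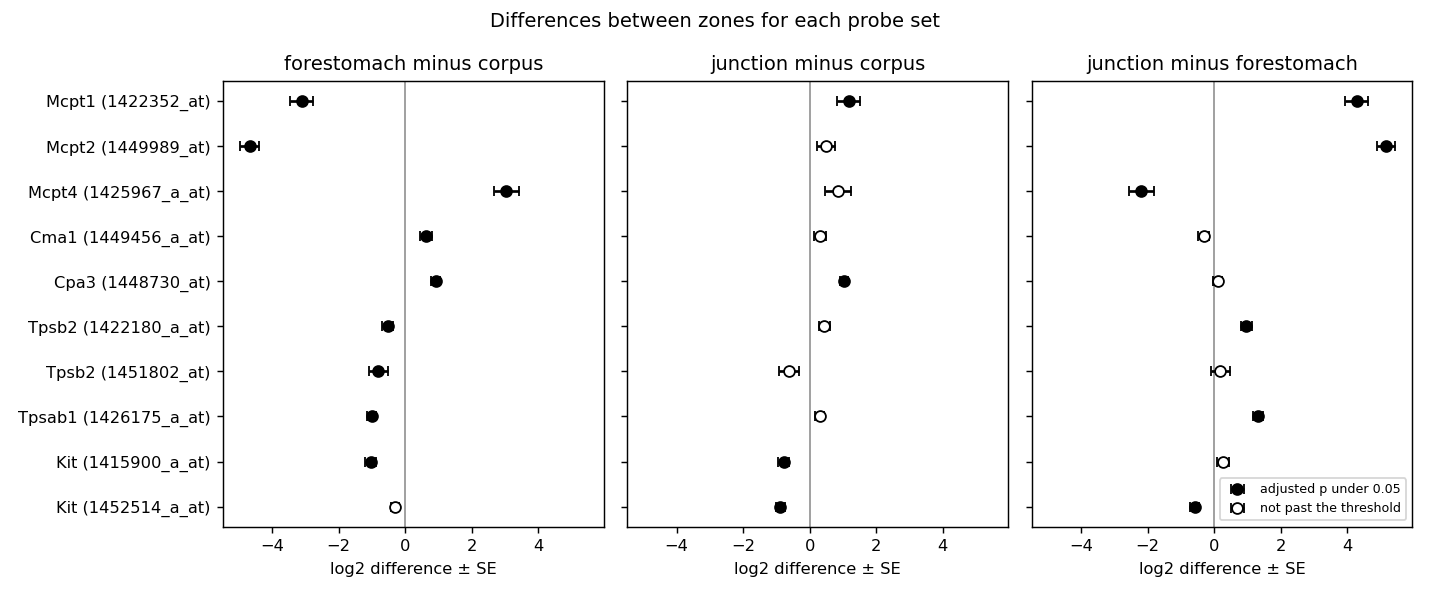
Log2 difference ± SE of each probe set for forestomach minus corpus, junction minus corpus and junction minus forestomach, filled where the adjusted p passed the threshold of 0.05. Mcpt1 and Mcpt2 are far below 0 and Mcpt4 far above 0 in forestomach minus corpus, while Cpa3 is above 0 in both comparisons against the corpus.

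The brighter Tpsb2 probe set and Tpsab1 were lowest in the forestomach, as Mcpt1 and Mcpt2 were, with smaller differences and with forestomach signals above the filter level. Their means were highest in the junction, but neither passed the test between junction and corpus. Tpsb2, which encodes the main tryptase of mouse connective tissue mast cells, had signals of 188.1, 137.8 and 166.6 in the junction (164.2 ± 25.2), 90.8, 72.5 and 73.2 in the forestomach (78.8 ± 10.4) and 105.2, 107.2 and 142.8 in the corpus (118.4 ± 21.2) on its brighter probe set, 1422180_a_at. It was 1.96-fold higher in the junction than in the forestomach (log2 difference 0.97 ± 0.16, adjusted p = 0.00179). With forestomach array 1 alone, assumed to vary like the other zones, the difference was 0.78 (adjusted p = 0.0614). The forestomach was below the corpus (-0.53 ± 0.16, adjusted p = 0.0227), a call lost without corpus replicate 3 (adjusted p = 0.0752), forestomach replicate 2 (0.0689) or forestomach replicate 3 (0.0685), and without series 2 or series 3. The junction minus corpus difference of 0.44 ± 0.16 did not pass the test (adjusted p = 0.0893).

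The second Tpsb2 probe set, 1451802_at, was dim, with signals of 37.7, 12.1 and 28.6 in the junction, 26.0, 12.9 and 23.5 in the forestomach and 49.4, 44.9 and 35.3 in the corpus. Its forestomach signal was lower than in the corpus (log2 difference -0.81 ± 0.29, adjusted p = 0.0414, at least 1.44-fold), a call kept in 7 of 21 alternatives. Its junction minus corpus difference was -0.62 (adjusted p = 0.164), the opposite sign from the brighter probe set, so the direction of Tpsb2 between junction and corpus is uncertain.

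Tpsab1 (1426175_a_at), which RefSeq lists as a transcribed pseudogene, had signals of 96.2, 110.5 and 119.8 in the junction (108.8 ± 11.9), 45.6, 31.1 and 37.6 in the forestomach (38.1 ± 7.3) and 87.2, 76.6 and 96.3 in the corpus (86.7 ± 9.9). It was 2.48-fold higher in the junction than in the forestomach (log2 difference 1.31 ± 0.15, adjusted p = 1.96e-04) and 2.02-fold lower in the forestomach than in the corpus (-1.01 ± 0.15, adjusted p = 4.08e-04). The junction minus corpus difference of 0.30 ± 0.15 did not pass the test (adjusted p = 0.182). Tpsb2 and Tpsab1 are similar genes, and cross-hybridisation between them was not tested.

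Kit, the receptor that mast cells, interstitial cells of Cajal (the pacemaker cells of gut muscle) and melanocytes need, was highest in the corpus on both of its probe sets. On 1452514_a_at, the brighter one, signals were 126.6, 154.1 and 116.9 in the junction (132.5 ± 19.3), 184.7, 191.2 and 233.6 in the forestomach (203.2 ± 26.6) and 240.8, 252.1 and 264.8 in the corpus (252.6 ± 12.0). It was lower in the junction than in the corpus (log2 difference -0.89 ± 0.13, adjusted p = 0.00269) and than in the forestomach (-0.58 ± 0.13, adjusted p = 0.00895), and the forestomach minus corpus difference did not pass the test (-0.31 ± 0.13, adjusted p = 0.0832). That difference passed without forestomach replicate 3 (-0.41, adjusted p = 0.0412) and with both probe sets averaged (-0.68, adjusted p = 9.05e-04). The call against the forestomach was lost without series 1, without series 3, with forestomach array 1 alone (-0.46, adjusted p = 0.127), and with both probe sets averaged (-0.16, adjusted p = 0.293).

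On 1415900_a_at, Kit had signals of 76.4, 89.6 and 63.8 in the junction (76.6 ± 12.9), 62.9, 76.1 and 48.3 in the forestomach (62.4 ± 13.9) and 143.1, 148.7 and 122.0 in the corpus (137.9 ± 14.1). Here Kit was lower in the forestomach than in the corpus (-1.04 ± 0.17, adjusted p = 9.36e-04) and lower in the junction than in the corpus (-0.78 ± 0.17, adjusted p = 0.0152). The junction call was lost without corpus replicate 1 (adjusted p = 0.0518), corpus replicate 2 (0.0517) or junction replicate 3 (0.0562), and without any one of the 3 series. The junction minus forestomach difference was 0.27 ± 0.17 (adjusted p = 0.258), so the probe sets put junction and forestomach in opposite order.

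Kitl, the ligand of Kit, had signals of 1895.5, 1726.4 and 2116.0 in the junction, 1095.7, 1140.0 and 1389.4 in the forestomach and 1863.9, 1880.3 and 1954.2 in the corpus. It was lower in the forestomach than in the corpus (log2 difference -0.66 ± 0.12, adjusted p = 0.00213) and higher in the junction than in the forestomach (0.66 ± 0.12, adjusted p = 0.00335). Mitf, the transcription factor downstream of Kit in mast cells and melanocytes, was lower in the forestomach than in the corpus (-1.34 ± 0.18, adjusted p = 3.13e-04). Gata2, a GATA factor needed for mast cell development, had a forestomach minus corpus difference of -0.52 ± 0.21 that did not pass the test (adjusted p = 0.0647). Of 7 measured markers of interstitial cells of Cajal, Kit among them, 3 were higher and 2 lower in the forestomach than in the corpus, where 57.8% of all genes passed. Between junction and corpus 2 were higher and 2 lower in the junction, Kit among the lower, where 21.4% of all genes passed. Ano1, the chloride channel that defines these cells, was higher than in the corpus in the junction (0.90 ± 0.19, adjusted p = 0.0133) and in the forestomach (0.77 ± 0.19, adjusted p = 0.0089), against the direction of Kit. Slc4a4, of the same list, was lower than in the corpus in the junction (-0.54, limma adjusted p = 0.0119) and in the forestomach (-2.10, limma adjusted p = 1.23e-06), the direction of Kit. The junction calls of Ano1 and Slc4a4 against the corpus were each kept in 21 of 24 alternatives. Of the melanocyte markers, Tyr, Tyrp1, Dct and Mlana did not pass the filter. Of the 4 measured, which include Kit itself, 0 passed between forestomach and corpus with limma (2 at an unadjusted p under 0.05, Kit among them). The part of either cell type in the Kit signal was not tested.

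None of the 10 probe sets passed the test of lying above or below both neighbours in the junction (limma fit with the larger of the 2 p-values, adjusted over all probe sets), which 0.139% of all probe sets passed above and 0.0373% below. At an unadjusted p under 0.05 there were 3, above both for Mcpt1 and the brighter Tpsb2 probe set and below both for the brighter Kit probe set. Their limma adjusted p-values were 0.443, 0.722 and 0.252. All junction arrays lay above the other 6 arrays for Mcpt1, Mcpt2 and Cpa3, as for 2.15% of all probe sets.

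Other genes of the chymase cluster and other granule proteases were not measurable. Of 13 listed, 10 were on the array and 0 passed the filter. The highest signal of any of them was 19.3 in the junction, 40.3 in the forestomach and 46.0 in the corpus. Mcpt8, a protease known for basophils, reached at most 17.4 in the junction, 13.7 in the forestomach and 4.9 in the corpus. Mcpt9, Cma2 and Prss34 were not analysed here.

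Genes for granule storage and protease activation were mostly lower in the forestomach. Of 13 measured, 9 were lower and 1 higher in the forestomach than in the corpus (median log2 difference -0.63, against -0.01 over all genes, of which 57.8% passed). Against the forestomach, 10 were higher and 0 lower in the junction by limma (at an unadjusted p under 0.05, also 0 lower, median 0.83, against -0.04 over all genes, of which 41.5% passed). Against the corpus, 3 were higher and 2 lower in the junction, where 21.4% of all genes passed. Most of these genes are also used by other secretory cells, so the list is not particular to mast cells.

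Hdc, which makes histamine and is also active in the enterochromaffin-like cells of gastric glands, had signals of 188.2, 135.8 and 155.6 in the junction, 5.6, 4.8 and 18.2 in the forestomach and 264.8, 280.2 and 329.9 in the corpus. It was at least 9.79-fold lower in the forestomach than in the corpus (adjusted p = 2.46e-06), and lower in the junction than in the corpus (log2 difference -0.83 ± 0.24, adjusted p = 0.0451), a call lost in 13 alternatives. Slc18a2, which loads amines into vesicles, was lower in the forestomach (log2 difference -2.27 ± 0.12, adjusted p = 1.25e-06) and in the junction (-1.12 ± 0.12, adjusted p = 4.73e-04) than in the corpus. Unlike Mcpt1 and Mcpt2, both amine genes had every junction array below every corpus array.

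Ctsc, the peptidase that activates granule proteases, was higher in the junction than in the forestomach (0.83 ± 0.16, adjusted p = 0.00382) and than in the corpus (0.56 ± 0.16, adjusted p = 0.0419, or 0.0769 with the series as a block). Srgn, the proteoglycan core that holds proteases in granules, was also higher in the junction than in the forestomach (0.52 ± 0.13, adjusted p = 0.0127) and than in the corpus (0.46 ± 0.13, adjusted p = 0.0375, or 0.0711 with the series as a block). Each junction call against the corpus was lost in 13 alternatives. Chst15, which sulfates chondroitin chains, was higher than in the corpus in the forestomach (1.01 ± 0.18, adjusted p = 0.00158) and in the junction (0.98 ± 0.18, adjusted p = 0.00728), as Cpa3 was.

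**Figure D3:**
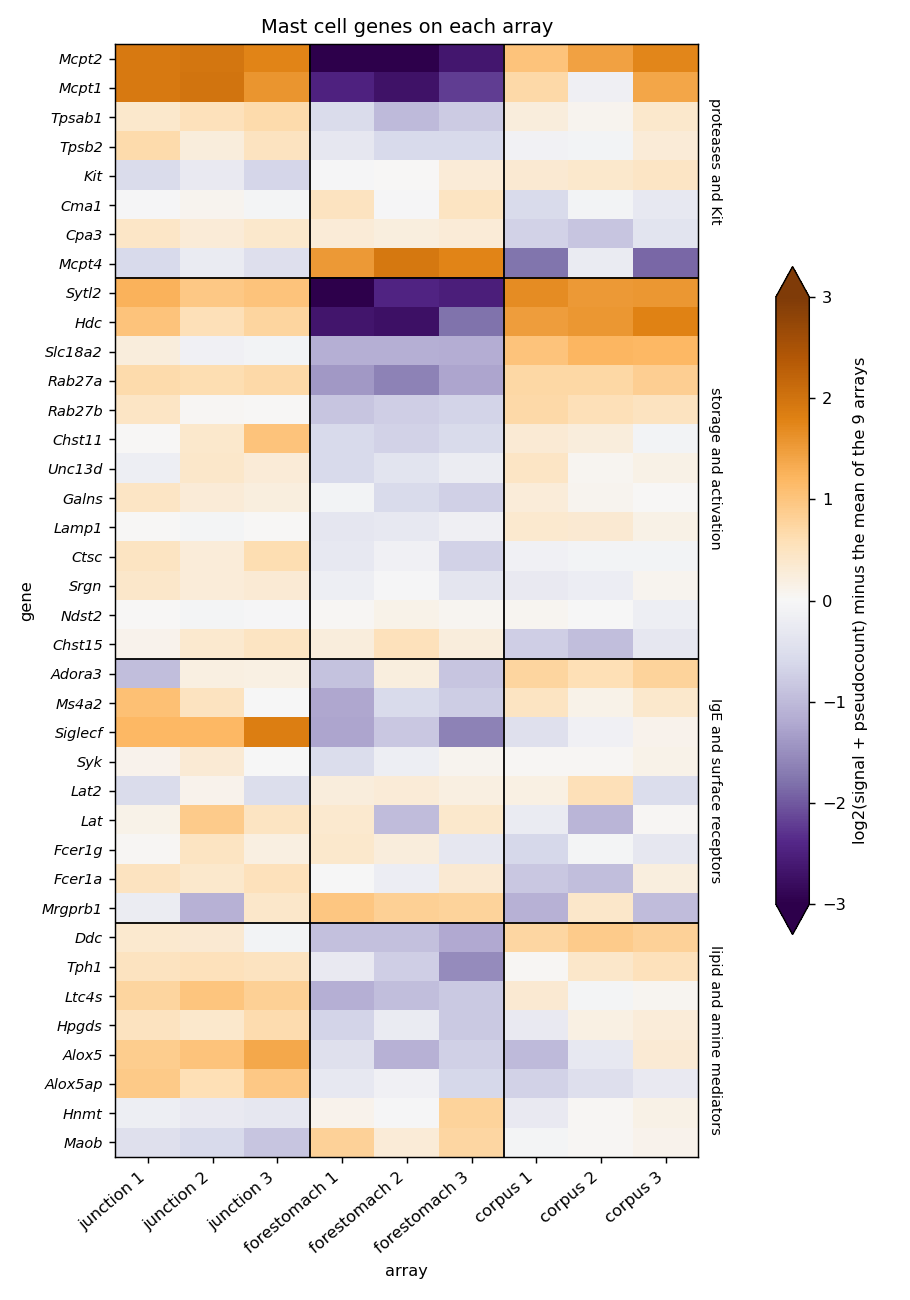
Log2(signal + pseudocount) of mast cell genes on each array minus the gene's mean over the 9 arrays, in 4 groups of genes; orange is above and purple below the mean, and the scale ends at 3 and -3. Mcpt2, Mcpt1, Sytl2 and Hdc are purple on the forestomach arrays, while Mcpt4 is orange only there.

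Of 9 measured IgE and surface receptor genes, 1 was higher and 3 were lower in the forestomach than in the corpus, 2 were higher in the junction than in the corpus and 2 higher in the junction than in the forestomach. Over all genes 57.8%, 21.4% and 41.5% passed in these comparisons. Ms4a2, the beta chain of the high-affinity IgE receptor, had signals of 131.8, 85.1 and 57.4 in the junction, 18.8, 35.2 and 29.7 in the forestomach and 84.5, 63.3 and 78.8 in the corpus. Ms4a2 was lower in the forestomach than in the corpus (-1.19 ± 0.27, adjusted p = 0.00568) and higher in the junction than in the forestomach (1.38 ± 0.27, adjusted p = 0.00424). Fcer1a, the IgE-binding chain, had signals of 65.9, 60.3 and 68.4 in the junction, 43.6, 36.5 and 58.5 in the forestomach and 20.1, 17.7 and 53.2 in the corpus. It was higher in the junction than in the corpus (1.0 ± 0.29, adjusted p = 0.0458), a call lost in 14 alternatives.

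Mrgprb1, a receptor of the Mrgpr family, read 15.5, 3.9 and 29.4 in the junction, 48.7, 43.1 and 41.5 in the forestomach and 3.9, 29.5 and 5.2 in the corpus. It was above the filter level on the 3 forestomach arrays and on no other, so it passed the filter only through that zone. The filter thus favoured a higher forestomach, and the test is no separate support for it. Mrgprb1 was at least 1.28-fold higher in the forestomach than in the corpus (adjusted p = 0.0261, or 0.055 with the series as a block), a call lost in 9 alternatives. Siglecf, known from eosinophils, was higher in the junction than in the corpus (1.56 ± 0.26, adjusted p = 0.00415) and than in the forestomach (at least 5.26-fold, adjusted p = 9.78e-05). Both measured eosinophil markers were higher in the junction than in the corpus (21.4% of all genes passed) and than in the forestomach (41.5%). The defining genes Prg2, Epx and Ccr3 did not pass the filter.

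Genes for lipid and amine mediators were mostly higher in the junction than in the forestomach. Of 8 measured, 6 were higher and 1 lower in the junction than in the forestomach (median log2 difference 1.21), and 3 were higher and 2 lower in the junction than in the corpus (median 0.32). Between forestomach and corpus 1 was higher and 4 were lower in the forestomach (median -0.54). Over all genes 41.5%, 21.4% and 57.8% passed in these comparisons in turn, with medians of -0.04, -0.05 and -0.01. The count between forestomach and corpus was thus near the share of all genes. Ltc4s, which makes leukotriene C in mast cells and other myeloid cells, had signals of 198.6, 236.4 and 210.2 in the junction, 46.4, 54.2 and 60.1 in the forestomach and 146.1, 107.8 and 117.9 in the corpus. It was higher in the junction than in the corpus (0.76 ± 0.14, adjusted p = 0.00746) and than in the forestomach (1.83 ± 0.14, adjusted p = 2.76e-05). Alox5ap, the helper of 5-lipoxygenase, was higher in the junction than in the corpus (1.31 ± 0.17, adjusted p = 0.00124) and than in the forestomach (1.18 ± 0.17, adjusted p = 8.43e-04).

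**Figure D4:**
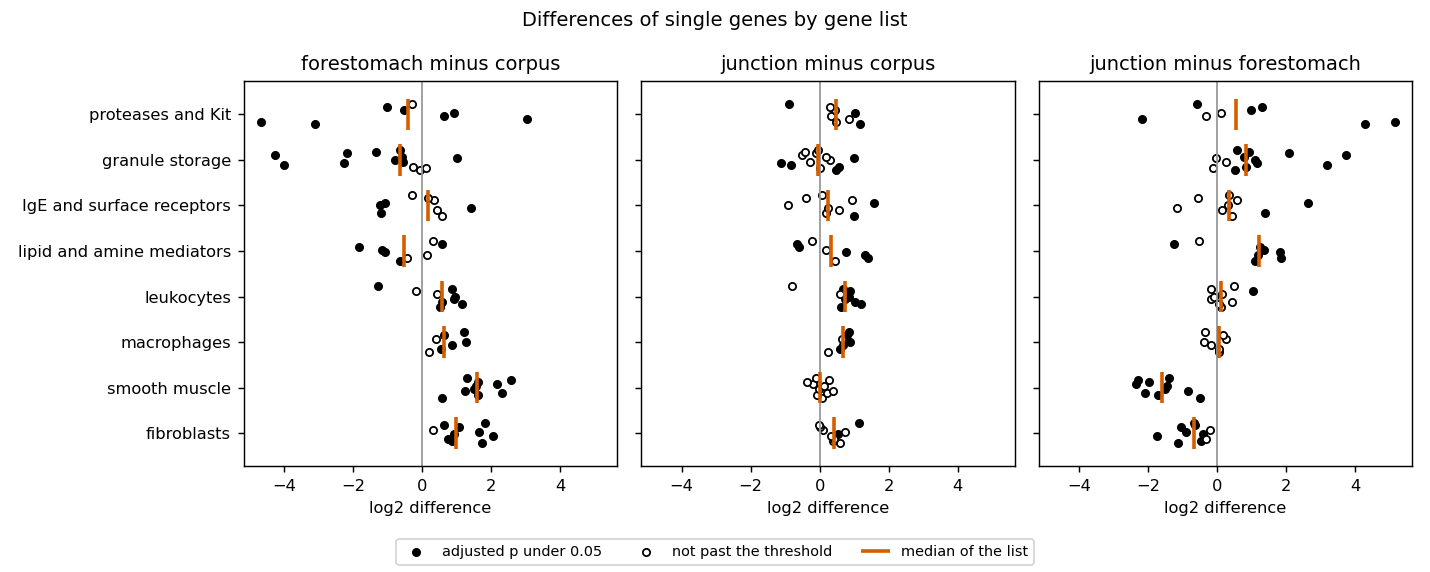
Log2 differences of single genes by list for the 3 comparisons, filled where the adjusted p passed 0.05, with the list's median as an orange bar. Storage and mediator genes lie mostly above 0 in junction minus forestomach, where all 10 smooth muscle markers lie below 0.

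Markers of other cells moved with the zones as well, and their part in the protease results was not tested. All 10 smooth muscle markers and 9 of 10 fibroblast markers were higher in the forestomach than in the corpus. That was the direction of Mcpt4, Cma1 and Cpa3, but not of the tryptase genes Tpsb2 and Tpsab1. Against the forestomach, 10 smooth muscle and 8 fibroblast markers were lower in the junction, the direction of Mcpt4 but not of Cpa3. Between junction and corpus 0 of the smooth muscle markers (1 at an unadjusted p under 0.05 in limma) and 2 of the fibroblast markers passed. Of 10 gland markers 7 were lower in the forestomach than in the corpus, the direction of Mcpt1, Mcpt2, Tpsb2 and Tpsab1. Of the same markers 0 passed between junction and corpus in limma (0 also at an unadjusted p under 0.05). Over all genes 57.8% passed between forestomach and corpus, 41.5% between junction and forestomach and 21.4% between junction and corpus, in either direction.

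Of 9 leukocyte markers measured, 7 were higher in the junction than in the corpus, 6 higher and 1 lower in the forestomach than in the corpus, and 1 higher in the junction than in the forestomach. Over all genes 21.4%, 57.8% and 41.5% passed in these comparisons, in either direction. Of 7 macrophage markers 5 were higher in the junction than in the corpus, 5 in the forestomach than in the corpus and 0 passed between junction and forestomach in limma (2 at an unadjusted p under 0.05). Cpa3 passed in the first 2 of these comparisons and not in the third. Of 4 measured basophil markers, 1 was higher in the forestomach than in the corpus, which was Cpa3 itself. In the junction 2 were higher than in the corpus, Cpa3 itself and Fcer1a, so these counts are not separate from the Cpa3 result.

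For each protease the 3 genes with the most similar signal over the 9 arrays were listed from 13636 other genes, by Pearson correlation of log2 values as a description. The arrays of a zone share their tissue, so any gene with the same order of zones correlates. Mcpt1 was nearest to the epithelial adhesion gene Epcam (r = 0.987), Nalcn and Stim2. Mcpt2 was nearest to Cpn1 (r = 0.996), Adamdec1 and P2rx4, and 516 genes correlated with it above 0.95. Mcpt4 was nearest to the smooth muscle gene Tagln (r = 0.991), Tex264 and Pomp. Cpa3 was nearest to Auts2 (r = 0.989), Pir and S100a9. Tpsab1 was nearest to Gcnt1 (r = 0.994), Capn5 and Plscr1, and Tpsb2 to Limd2 (r = 0.968), Hes1 and Adam28. Cma1, nearest to Gpcpd1 (r = 0.960), Phip and Tsr2, had 3 genes above 0.95, and Kit, nearest to Thra (r = 0.947), Per2 and Sik2, had 0.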

How the data were processed

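RNA was extracted with Trizol from stripes pooled by 3 mice, and biotin-labelled cRNA was hybridised to 9 arrays, per the labels. The deposited values are linear intensity signals that came from MAS5, per the submitters' processing notes. Its version and parameters are not given in the sources used. Each array's trimmed mean (2% off each end) was 200.0, and the median signal was 47.9 to 57.1. MAS5 subtracts mismatch probes, which leaves dim signals noisy. Gene names came from the platform annotation of 2016, updated by Entrez ID (34754 of 34958 probe sets with 1 symbol matched).

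The 64 control probe sets were left out. Tests used probe sets whose signal passed the 40th percentile of the array on at least 3 arrays. A pseudocount of 9.9 (the 20th percentile of the signal, as the median of the arrays) was added, and log2 values of the deposited signals were fitted with limma 3.58.1 in R 4.3.3, 1 mean per zone over 9 arrays, two-sided, with Benjamini-Hochberg adjustment over 29511 probe sets and a threshold of 0.05 on the adjusted p. Folds are on that log2 scale and understate dim genes. Lists count a gene by its brightest kept probe set (13637 genes). The fit was tested on simulated data with known changes.

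Every probe set of the members is named, and from 19 gene lists up to 4 genes past the threshold with the largest difference, plus genes whose role bears on Kit or the proteases. Members and lists were chosen with earlier results of these data known. Alternatives covered the pseudocount, filter, normalization, choice of probe set, variance model, arrays fitted and replicates.

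Arrays with the same series number hold RNA of the same 3 mice, which pairs them by number, and 1 alternative had the series as a block. Deviations from zone means correlated by 0.0362 on average within 9 same-series pairs (-0.0124 to 0.0980, 0 of them over 0.1) and by -0.0181 in 18 other pairs. The deviations of a zone sum to 0, so the second mean follows closely from the first and is no separate baseline.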

Additional observations from a re-analysis of the deposited data

How the results depend on the processing

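Over the 10 probe sets and 3 comparisons, 644 of 705 alternative values kept direction and side of the threshold, 52 kept direction but lost the call, 5 gained one and 4 turned sign. The sign changes, none in a called difference, were Tpsb2 (brighter probe set) in junction minus corpus on the mean of its probe sets (-0.0898) and dim Tpsb2 in junction minus forestomach without junction replicate 1 (-0.0498, in a leave-out range up to 0.507), without forestomach replicate 2 (-0.0141) and without forestomach replicates 2 and 3 together (-0.0662, chosen after seeing the data, with the remaining array assumed to vary like the other zones). The cause was not tested.

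Probe sets passing the test numbered 15596 (forestomach against corpus), 5625 (junction against corpus), 11027 (junction against forestomach) and 52 (beyond both neighbours). With 1 probe set per gene the counts were 8168, 3407, 6079 and 29, and with probe sets averaged by gene 7928, 3317, 5850 and 46, over fewer features. Beyond both neighbours, 8 passed with pseudocount 1, 106 with the larger pseudocount, 9 with no filter, 91 with the stricter filter, 97 with trend and robust, 11 with the replicate block and 6 without forestomach replicates 2 and 3 together, where junction against forestomach was 6215. Leaving out single arrays gave 13797 to 15517, 3383 to 5401, 8934 to 10700 and 3 to 27 in the same order, junction against corpus being lowest without corpus replicate 1 (3493) or junction replicates 2 (3528) or 3 (3383). Without series 1, 2 and 3 the counts were 11648, 11936 and 12184, then 2799, 1451 and 1614, then 6413, 7414 and 7244, then 4, 0 and 0. Leaving out junction replicate 3 lost Ano1 in junction against corpus (adjusted p = 0.0506). Averaging probe sets lost Tgfb1 (0.0715) and Tgfbr2 (0.291) in forestomach against corpus and Ctsc in junction against forestomach (0.114). Genes lost in at least 1 comparison on leaving out a series included Ano1, Kitl, Ltc4s, Chst15, Srgn, Ctsc and Serpina3n. Apart from Mcpt1, Ctsc, Srgn and Mrgprb1, the replicate block changed no call of a named gene. Signals near background limit the sizes for Mcpt1, Mcpt2, Mcpt4 and dim Tpsb2.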

Other observations

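Action of the listed serine protease inhibitors on the mast cell proteases was not tested. Of 8 measured, 4 were higher and 1 lower in the forestomach than in the corpus (57.8% of all genes passed in either direction). In the junction 4 were higher than in the corpus (21.4% of all genes), and 3 were higher and 3 lower than in the forestomach (41.5%). Spink5, a squamous epithelial inhibitor of serine proteases, had signals of 2455.2 to 3601.4 in the junction, 6696.1 to 7362.3 in the forestomach and 20.4 to 59.1 in the corpus. Slpi, a secreted inhibitor of leukocyte proteases, had 4857.6 to 7000.9 in the junction, 9126.0 to 10937.5 in the forestomach and 328.9 to 508.2 in the corpus. Serpina3n was higher in the junction than in the forestomach (log2 difference 1.23 ± 0.29, adjusted p = 0.0107).

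Of 10 measured protease targets, 4 were higher and 2 lower in the forestomach than in the corpus (near the 57.8% of all genes). In the junction 3 were higher and 1 lower than in the corpus (21.4% of all genes), and 2 were higher and 3 lower than in the forestomach (41.5%). Agt, the angiotensin precursor, had signals of 219.5, 192.6 and 161.9 in the junction, 35.8, 5.4 and 21.7 in the forestomach and 150.4, 108.7 and 162.7 in the corpus, low in the same zone as Mcpt1. Fn1, fibronectin, was higher in the forestomach than in the corpus (1.61 ± 0.12, adjusted p = 8.18e-06), as Mcpt4 was.

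Of 13 mast cell transcription factors, 4 were higher and 3 lower in the forestomach than in the corpus, a share near the 57.8% of all genes. Runx1 was at least 4.78-fold lower in the forestomach than in the corpus (adjusted p = 1e-05), and Cebpa was higher in the forestomach (2.99 ± 0.17, adjusted p = 1.87e-06). Of 13 growth and homing genes 3 were higher and 3 lower in the forestomach than in the corpus (57.8% of all genes passed), among them Tgfbr2 (0.90 ± 0.12, adjusted p = 3.39e-04) and Tgfb1 (-0.89 ± 0.14, adjusted p = 6.28e-04). Over 24 alternatives the differences of Tgfbr2 and Tgfb1 were as small as 0.18 and -0.36, and averaging probe sets lost both calls.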
